A study of Mus musculus with 8 samples.

Results

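Newly formed oligodendrocytes (NFOL) of the mouse visual cortex (VC) were taken as the nuclei that carry this class name in the deposited nucleus table. The name was given to 2765 of 44021 nuclei (6.28%), spread over all 8 libraries, and NFOL made up 21.5% of the 12847 nuclei of the oligodendrocyte lineage. The other lineage classes were oligodendrocyte precursor cells (OPC, 8363 nuclei), mitotic OPC (M-OPC, 353), myelin-forming oligodendrocytes (MFOL, 319) and mature oligodendrocytes (MOL, 1047). The table gives for each nucleus its class, its count of unique molecular identifiers (UMIs, a measure of captured RNA molecules), its number of detected genes, its mitochondrial share of UMIs and its place in the authors' embeddings. Gene expression itself was not analysed here, and the class name could therefore not be checked against the NFOL markers Enpp6, Bcas1 and Tcf7l2, and the class is described under the name the authors gave it.

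OPC divide throughout the developing brain, and a part of them leave the cell cycle and become premyelinating oligodendrocytes, the stage called NFOL. These cells extend processes towards axons, and they either go on to wrap them with myelin or die. Enpp6, a choline phosphodiesterase, Bcas1, a protein of cells starting to form myelin, and Tcf7l2, a transcription factor, are high in this passing stage, which is why NFOL are read as a sign of ongoing oligodendrocyte formation. OPC receive synaptic input from neurons, and neuronal activity is known to affect their division and differentiation.

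All mice were C57BL/6J at postnatal day 14. VGlut2 WT mice carried the floxed VGlut2 (Slc17a6) gene on both alleles without cre, and VGlut2 cKO mice carried the same floxed alleles with RORα-IRES-Cre, which removes this vesicular glutamate transporter from thalamic neurons that project to the VC; WT were littermates of cKO. Ip3r2 KO mice lacked Itpr2, the IP3 receptor through which astrocytes release calcium from stores, in all cells from the start of development, and Ip3r2 WT mice were littermates or C57BL/6J mice bred in the same facility. Each of the 4 groups had 2 libraries, 1 male and 1 female, and each library pooled the VC of a pair of mice alike in genotype and sex. On each day 1 WT and 1 mutant library of a model were handled together, so the day cannot be told apart from the model. The sources used here do not say whether both libraries of a day were of the same sex. If they were, day and sex cannot be told apart within a model either. The main fits of mutant against WT did not use these pairs. Nuclei negative for the neuronal protein NeuN were sorted before droplet barcoding. A share of nuclei is therefore a share of the sorted nuclei, and fewer cells of a class cannot be told apart from fewer of its nuclei passing the sort and the filters.

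The libraries held 4767 to 5920 nuclei and between 8824112 and 12948023 UMIs in total. The model, genotype and sex written beside the nuclei matched the labels in 8 of 8 libraries. Barcode letters that also occurred in another library belonged to 475 nuclei, 29 of them NFOL, and in 0 cases were both nuclei NFOL. Single-library shares below carry Wilson 95% intervals, which cover counting error only.

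NFOL were a steady part of every library. In the VGlut2 model they were 6.75% of the nuclei (interval 6.13 to 7.42) in male WT and 5.92% (5.31 to 6.58) in female WT, and 5.44% (4.89 to 6.05) in male cKO and 6.11% (5.51 to 6.76) in female cKO. In the Ip3r2 model they were 6.65% (5.98 to 7.39) and 6.85% (6.20 to 7.55) in the male and female WT libraries, and 6.46% (5.84 to 7.14) and 6.18% (5.58 to 6.84) in the male and female KO libraries. The male VGlut2 cKO library was the lowest and the female Ip3r2 WT library the highest. WT and mutant libraries overlapped in the VGlut2 model but not in the Ip3r2 model, where both KO values were below both WT values. Such a separation of 2 against 2 libraries has p = 0.333 in an exact permutation test, and it was not counted over the other classes. Over all libraries the share was 6.29% ± 0.477 (SD, n = 8).

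**Figure D1:**
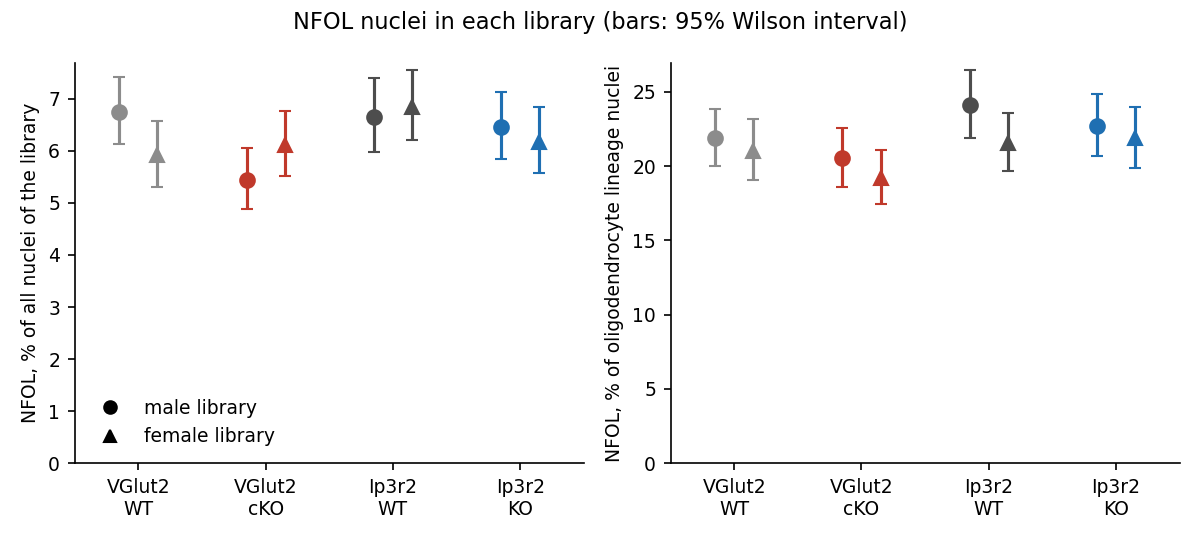
NFOL as a percentage of all nuclei of each library (left) and of its oligodendrocyte lineage nuclei (right); circles are male and triangles female libraries, and bars are 95% Wilson intervals. Shares ran from 5.44% to 6.85% of all nuclei and from 19.2% to 24.1% of the lineage, and the intervals of most libraries overlap.

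By its coefficient of variation NFOL had the steadiest share of the table. The coefficient of variation between libraries was 7.58% for NFOL, the lowest of 17 classes (4 astrocyte groups were joined into 1), followed by 8.30% for OPC, and it was 28.2% for MFOL, 31.5% for M-OPC and 33.0% for MOL, the highest. A rare class has a larger counting error, so the spread was also set against it. Chi-square per degree of freedom, which would be near 1 if only counting error separated the libraries, was 2.18 for NFOL, 2.99 for MFOL, 4.39 for M-OPC, 9.24 for OPC and 13.6 for MOL. By this measure NFOL ranked as number 3 from the lowest of 17, between the extremes of 1.46 (NeuronLike-Slc17a6) and 35.4 (microglia). The SD of the NFOL share, 0.477 percentage points, stood against 0.328 from counting alone. At the same relative spread chi-square per degree of freedom grows with the number of nuclei, so it does not rank relative spread between classes of unlike size. OPC had a mean share of 19.0% with an SD of 1.58 (0.530 from counting). MFOL had a mean of 0.720% with an SD of 0.203 (0.115 from counting).

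Within the lineage, NFOL outnumbered every later stage. There were 0.332 ± 0.0214 NFOL per OPC (SD, n = 8 libraries), with library values from 0.283 in the female VGlut2 cKO library to 0.355 in the male Ip3r2 WT library. Per MFOL there were 9.55 ± 3.51 NFOL, from 6.65 in the female Ip3r2 KO to 16.7 in the male Ip3r2 WT library, and per MOL 3.08 ± 1.50, from 1.83 in the female VGlut2 WT to 6.34 in the male Ip3r2 WT library. The number of NFOL per OPC was thus steady between libraries, while the number per MFOL or MOL varied more. MFOL and MOL nuclei were fewer than OPC nuclei, so ratios to them carry a larger counting error, which was not removed here. The male Ip3r2 WT library stood at the high end of all these ratios, with 19 MFOL and 50 MOL nuclei against 317 NFOL. Among cells past the OPC stage (NFOL, MFOL and MOL together), NFOL were 67.6% ± 7.76.

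Whether the NFOL share followed its neighbours was examined over the 8 libraries. With the OPC share Pearson's r was 0.60 and Spearman's rho 0.60 (exact permutation p = 0.117 and 0.132, adjusted over 4 relations 0.265 and 0.228), and r was 0.70 within the VGlut2 and 0.84 within the Ip3r2 libraries. Without the pair of libraries farthest from the median OPC share r was 0.91, and without the female VGlut2 cKO library alone it was 0.96 (exact permutation, adjusted p = 0.00317), so whether this relation passed the threshold rested on that library. With the MFOL share r was -0.05 and rho 0.14 (exact permutation p = 0.911 and 0.752, adjusted 0.911 and 0.752; r = 0.42 without the 2 farthest libraries), and with the MOL share r was -0.48 and rho -0.55 (exact permutation p = 0.228 and 0.171, adjusted 0.305 and 0.228; r = -0.35 without the 2 farthest). With the median UMIs of the library r was 0.58 and rho 0.57 (exact permutation p = 0.132 and 0.151, adjusted 0.265 and 0.228; r = 0.74 without the 2 farthest; 0.88 without the male VGlut2 WT library, adjusted p = 0.0325). Within the VGlut2 and Ip3r2 libraries r was 0.14 and -0.11 with MFOL, -0.74 and 0.39 with MOL, and 0.28 and 0.31 with the median UMIs. None of the 4 relations passed the threshold over all libraries as shares of all nuclei. As shares of the lineage, the relation to MOL did (r = -0.82, exact permutation, adjusted p = 0.0434). All shares of a library have the same total below them, so a higher share of a class leaves less for the others. The exact permutation does not allow for this, and fewer classes make up the total of the lineage.

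NFOL nuclei held more RNA than OPC nuclei and less than MFOL nuclei in every library. The median was 2241 and 2226 UMIs per NFOL nucleus in the male and female VGlut2 WT libraries, 2076 and 2520 in the VGlut2 cKO libraries, 2899 and 2983 in the Ip3r2 WT libraries and 3089 and 2864.5 in the Ip3r2 KO libraries. In the same order of libraries OPC had 1783, 1866, 1690, 2115.5, 2458.5, 2455, 2543 and 2367 UMIs, and MFOL 3258, 3733.5, 3139, 4045, 4404, 4215, 4820 and 4221.5. Within libraries NFOL were thus above OPC in 8 of 8, by 0.28 ± 0.0289 on the log2 scale (SD, 1.21-fold), and below MFOL in 8 of 8, with a difference of -0.61 ± 0.0801 (exact sign flip test over 8 libraries, two-sided, adjusted p = 0.00893 each over 8 comparisons; 0.00781 is the smallest unadjusted p that 8 libraries can give). The classes were drawn by the authors from the genes of these same nuclei, so class and readout are not fully independent.

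Detected genes followed the UMIs. The library medians of NFOL ran from 1116 genes in the male VGlut2 cKO to 1571 in the male Ip3r2 KO library. They were above OPC by 0.18 ± 0.0300 log2 (1.14-fold) and different from MFOL by -0.17 ± 0.0562 log2, each in the same direction in 8 of 8 libraries (exact sign flip test, adjusted p = 0.00893). Since a nucleus with more UMIs shows more genes, genes were also compared at equal UMIs, as the distance from a straight line of log2 genes on log2 UMIs through the lineage nuclei of the library. At equal UMIs NFOL showed 0.22 ± 0.0260 log2 more genes than MFOL (1.17-fold, 8 of 8 libraries, exact sign flip test, adjusted p = 0.00893). Against OPC the difference was 0.02 ± 0.0138, higher in NFOL in 6 of 8 libraries (exact sign flip test, adjusted p = 0.0391). It went to -0.00519 (adjusted p = 0.391, exact sign flip test) when means over nuclei replaced medians, and leaving out any one of 6 libraries took the adjusted p to between 0.0625 and 0.0781 by the same exact test, so NFOL and OPC could not be separated firmly in this measure. The median of NFOL thus lay near OPC, and far from MFOL, in the variety of genes at a given UMI count. NFOL nuclei were not uniform in this measure, as described below.

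The mitochondrial share of UMIs was highest in NFOL among the 5 lineage classes. It was 3.31% and 3.49% of the UMIs of NFOL in the male and female VGlut2 WT libraries, 3.40% and 3.45% in VGlut2 cKO, 3.63% and 3.43% in Ip3r2 WT and 3.56% and 3.47% in Ip3r2 KO. Over the libraries the share was 3.47% ± 0.0984 in NFOL, 3.14% ± 0.112 in M-OPC, 3.24% ± 0.0732 in OPC, 2.80% ± 0.0714 in MFOL and 3.06% ± 0.124 in MOL (SD, n = 8). It was higher in NFOL than in OPC and in MFOL in 8 of 8 libraries, and the NFOL minus OPC difference of 0.10 ± 0.0287 log2 (1.07-fold) and the NFOL minus MFOL difference of 0.30 ± 0.0488 log2 (1.23-fold) both passed the exact sign flip test (adjusted p = 0.00893). The median number of mitochondrial UMIs per nucleus was 86 in M-OPC, 70 in OPC, 91 in NFOL, 111 in MFOL and 134 in MOL, so NFOL lay between OPC and MFOL in this number. In nuclei of 1500 to 2500 UMIs alone, a comparison added after seeing the data, the differences were 0.18 log2 from OPC and 0.34 log2 from MFOL, although this window held only 1 to 8 MFOL nuclei per library. Over all 17 classes of the table NFOL ranked as number 7 from the lowest, so the high value is one within the lineage. The mitochondrial genes counted, and whether they entered the authors' clustering, are unknown from the sources used here. The libraries were made from sorted nuclei, and how mitochondrial RNA came to be captured with them was not tested. The share is therefore not read as an amount of mitochondria in NFOL cells.

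**Figure D2:**
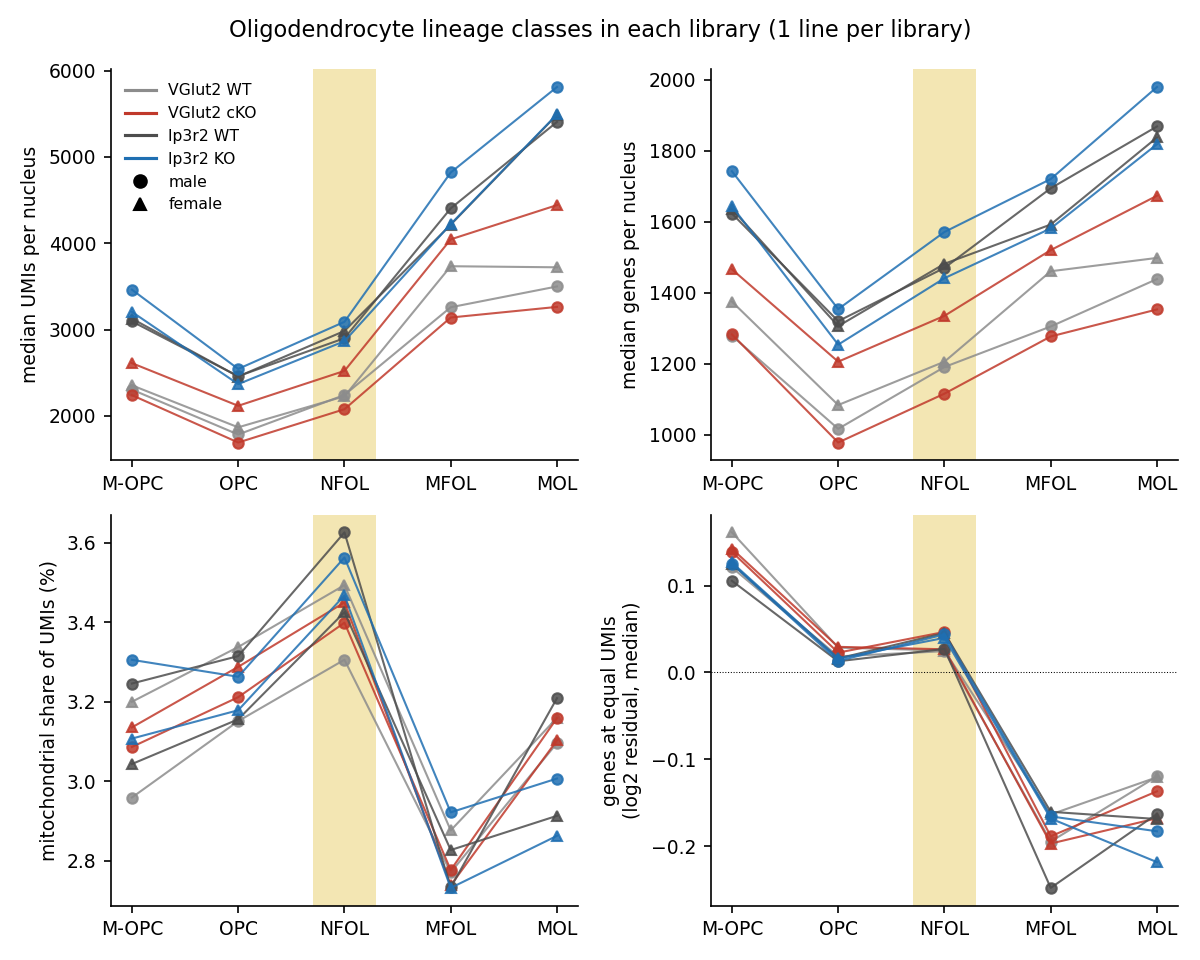
Median UMIs and genes per nucleus, mitochondrial share of UMIs, and genes at equal UMIs (log2 distance from the line of genes on UMIs) in the 5 lineage classes; each line is 1 library, coloured by group, and the shaded column marks NFOL. In all 8 libraries NFOL lay between OPC and MFOL in UMIs and genes and above both in mitochondrial share. The NFOL median of genes at equal UMIs was near that of OPC and above that of MFOL.

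Pooled over the libraries, nuclei with few genes were somewhat more frequent among NFOL. Fewer than 500 genes were detected in 45 NFOL nuclei (1.63%), against 46 OPC (0.55%), 2 MFOL (0.627%) and 11 MOL nuclei (1.05%). By library they numbered 6 and 13 in the male and female VGlut2 WT, 8 and 8 in VGlut2 cKO, 6 and 0 in Ip3r2 WT and 2 and 2 in Ip3r2 KO. The order of the classes was not the same in every library. In male VGlut2 cKO 7 of 173 MOL nuclei had so few genes, a larger part than the 8 of 322 NFOL. In female VGlut2 WT it was 0 of 173 MOL against 13 of 317 NFOL nuclei. Leaving out all nuclei with fewer than 500 genes kept the direction and the call of all 8 comparisons between stages above.

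In the authors' UMAP embedding NFOL formed a drawn-out band that left the OPC cloud at one end and met MFOL at the other. Of the 15 nearest nuclei of any class to each NFOL nucleus, 99.4% were NFOL, 0.489% OPC and 0.0772% MFOL, and 0 were of any other class, M-OPC and MOL included. All 15 neighbours were NFOL for 2720 of 2765 nuclei. Neighbours came from the same library in 12.8% of cases, where single libraries held 11.5% to 14.2% of all NFOL, so the libraries were mixed along the band. The authors had corrected for batch before making the embedding. On a straight line from the centre of OPC (0) to the centre of MFOL (1), the median NFOL nucleus lay at 0.584, with library medians from 0.557 in the male Ip3r2 KO to 0.607 in the male VGlut2 WT library. From 0.290 to 0.916 this line held all but the lowest 5% and the highest 5% of NFOL nuclei. MOL had a median position of 0.859, within this range and before MFOL, and M-OPC one of -0.0215, close to OPC. The line therefore does not place the lineage classes in order of stage, and position on it is not read as progress between stages. The embedding and the class names come from the same gene profiles, so these positions are a description and were not tested.

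**Figure D3:**
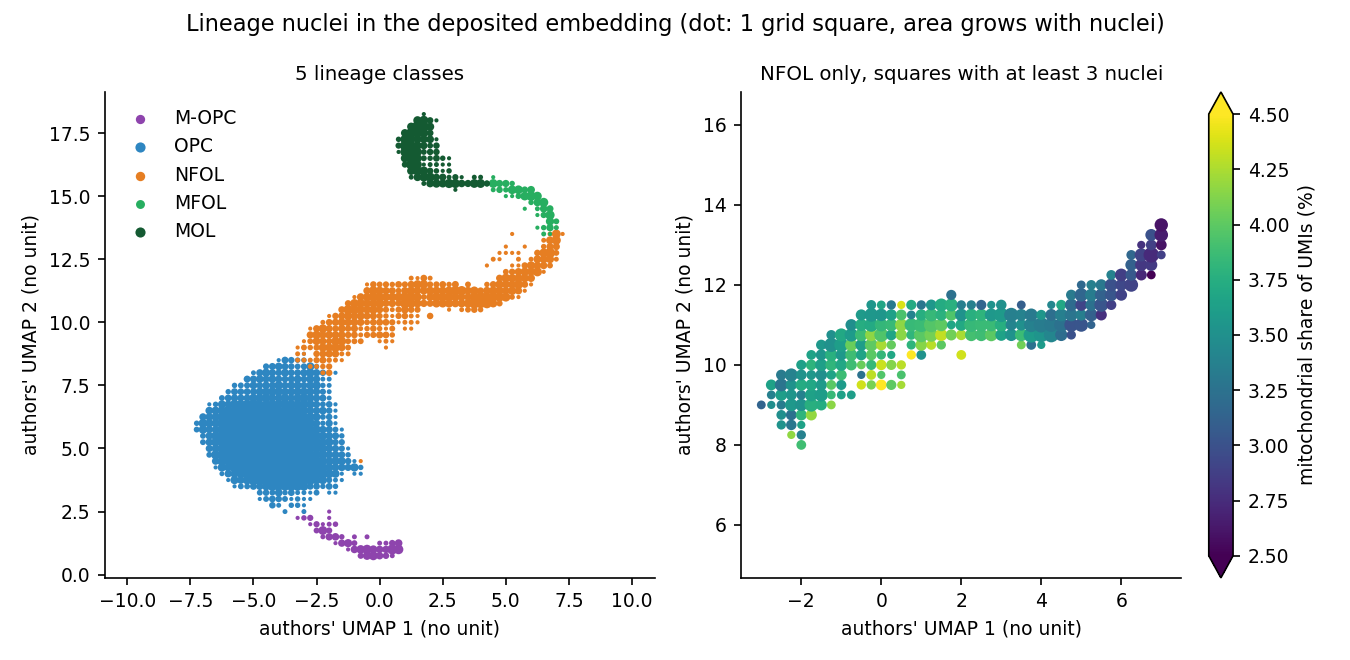
The oligodendrocyte lineage in the authors' UMAP (axes have no unit), binned in grid squares; dot area grows with the number of nuclei. Left, the 5 classes, with NFOL as a band between OPC and MFOL; right, the NFOL band alone, coloured by mitochondrial share of UMIs, highest around the middle of the band and lowest at the MFOL end.

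NFOL nuclei were not uniform along this band. When they were ordered along the OPC to MFOL line and divided into 5 bins of 553 nuclei, the mitochondrial share was 3.58% in the bin next to OPC, 3.80% and 3.82% in the next bins, 3.40% in bin 4 and 2.95% in the bin next to MFOL. In 8 of 8 libraries bins 2 and 3 were above bin 1 and bins 4 and 5 were below it, and the lowest value was always in bin 5 (2.79% to 3.11%). Bins 1 to 4 thus lay above the OPC average of 3.24%, with the highest values in the middle of the band. Bin 5 lay below that average and nearer to the 2.80% of MFOL. OPC were not divided in this way, and they were not uniform either. In the UMAP, 1 grid square of 20 OPC nuclei had 2.93% and another of 20 had 3.70%, which is above bin 1. Values above the OPC average are therefore not particular to NFOL. The UMI count went another way, with pooled medians of 2263, 2199, 2468, 2962 and 3156 from bin 1 to bin 5, and bins 3, 4 and 5 were above bin 1 in 8 of 8 libraries.

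Genes at equal UMIs fell at the same place. The median log2 distance from the line was 0.08 in each of the first 3 bins, -0.02 in bin 4 and -0.12 in bin 5, and it was lowest in bin 5 in 8 of 8 libraries. MFOL had -0.19 ± 0.0292 (SD, n = 8 libraries) and OPC 0.02 ± 0.00656 on this scale. Bins 1 to 3 thus lay above the OPC value, and bin 5 lay between those of OPC and MFOL. OPC were again not divided along the line. Each library held 16.0% to 23.9% of its NFOL nuclei in each bin, so no library lacked an end of the band.

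**Figure D4:**
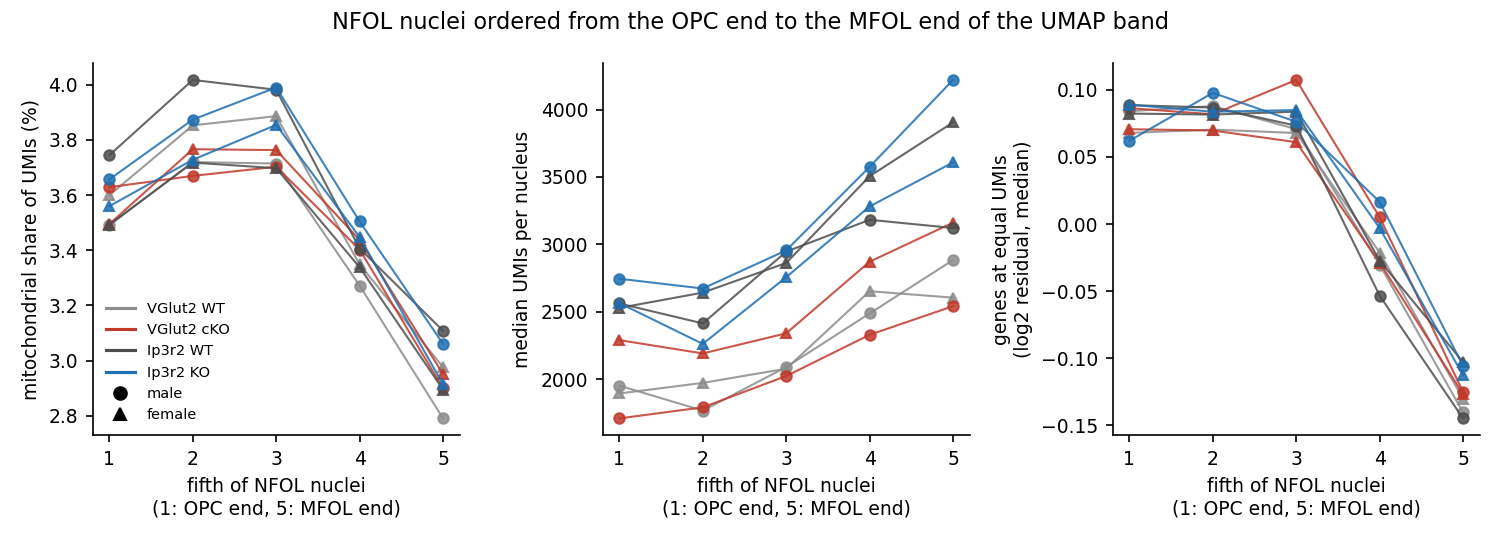
Mitochondrial share of UMIs, median UMIs and genes at equal UMIs in NFOL nuclei divided into 5 bins along the line from the OPC centre to the MFOL centre of the UMAP; each line is 1 library. The mitochondrial share peaks in bin 2 or 3 and is lowest in bin 5 in all 8 libraries (2.79% to 3.11%), while UMIs are higher in bins 3 to 5 than in bin 1.

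The order was also taken from other embeddings. Bins from the authors' t-SNE and from their principal components, both added after seeing the data, placed 68.3% and 63.9% of NFOL nuclei in the same bin as the UMAP order, and 97.2% and 96.7% within 1 bin of it. These embeddings come from the same gene profiles, so the overlap is not an independent check of the order. Along the t-SNE, bins 4 and 5 lay beyond the MFOL centre at 1 (positions 1.14 to 1.36), so bin 5 there is not the bin nearest to that centre. The drop from the highest to the last bin was 0.874 percentage points along the UMAP, 0.521 along the t-SNE, where bin 4 rather than bin 5 was lowest in 7 of 8 libraries, and 0.731 along the principal components. In NFOL of 2000 to 3000 UMIs alone the drop was 0.724, and bin 5 was again the lowest in 8 of 8 libraries, although it then held only 4 nuclei in the male Ip3r2 KO and 13 in the female Ip3r2 WT library, against up to 52 in the others. Over the nuclei of single libraries the Spearman correlation of UMIs with the mitochondrial share was -0.55 to -0.30, and that of UMIs with position 0.38 to 0.55. These are descriptions over nuclei that share a library and its depth. UMIs per nucleus varied within a library with a coefficient of variation of 30.9% to 38.0%.

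The VGlut2 comparison asked what the loss of thalamic glutamate release does to cells of the VC. NFOL were 5.77% ± 0.473 of the nuclei in VGlut2 cKO and 6.33% ± 0.591 in VGlut2 WT (SD, n = 2 libraries each). The difference in log2 odds was -0.14 (95% interval -0.72 to 0.43, limma, adjusted p = 0.980 over 17 classes), and 0 of 17 classes passed the threshold (percent called 0, with 0 at an unadjusted p under 0.05 in limma and 0 in edgeR). The difference was -0.02 in edgeR with TMM, and it moved between -0.04 without the male WT and -0.24 without the female WT library. The same-sex pairs differed in direction. The male cKO library was 19.4% below its WT partner, and the female cKO library 3.26% above. With 2 libraries against 2 an exact permutation test cannot give a p below 0.333.

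Ratios to the other stages gave no call either. NFOL per OPC were 0.335 in both the male and female VGlut2 WT libraries and 0.329 and 0.283 in the male and female cKO libraries, so both cKO values were below both WT values, the male one by 1.73% of its partner and the female one by 15.8%. The log2 difference of -0.14 had an interval of -0.82 to 0.55. A separation of 2 against 2 libraries has p = 0.333 in an exact permutation test, and it was not counted over all 10 ratios. NFOL per MFOL were 8.36 and 6.89 in WT and 7.49 and 10.8 in cKO (log2 difference 0.24, interval -0.97 to 1.45), and NFOL per MOL were 3.12 and 1.83 in WT and 1.86 and 2.01 in cKO (-0.31, interval -1.52 to 0.91). NFOL per M-OPC were 6.89 and 12.7 in WT and 6.08 and 13.3 in cKO (-0.05, interval -1.26 to 1.15). None of the 4 passed the threshold (limma, adjusted p = 0.918 each over 10 ratios, percent called 0, with 0 at an unadjusted p under 0.05), and the interval of each ratio reached beyond 0.5 log2 in both directions. The direction turned for M-OPC without the male cKO (0.51) or the female WT library (0.38), for MFOL without the female cKO (-0.02) and for MOL without the male WT library (0.08).

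UMIs, genes and mitochondrial share of NFOL differed little between VGlut2 cKO and WT. The log2 difference was 0.03 for UMIs (interval -0.36 to 0.43, adjusted p = 0.960), 0.03 for genes (-0.29 to 0.34, adjusted p = 0.923) and 0.01 for the mitochondrial share (-0.08 to 0.10, adjusted p = 0.973; limma over the 15 classes that had 20 or more nuclei in all libraries, percent called 0 in each, with 0 at an unadjusted p under 0.05). The cKO libraries spanned both WT values in UMIs, with 2076 (male) and 2520 (female) against 2241 and 2226. In the UMI and gene fits limma gave all classes the same standard error. In the share, ratio and mitochondrial fits it drew the standard error of each class or ratio towards those of the others. None of these intervals is therefore the spread of NFOL alone.

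The Ip3r2 comparison asked what a lack of astrocyte calcium release does. The NFOL share was 6.32% ± 0.199 in Ip3r2 KO and 6.75% ± 0.140 in Ip3r2 WT (SD, n = 2 libraries each), a log2 odds difference of -0.10 (interval -0.68 to 0.47, limma, adjusted p = 0.994). Again 0 of 17 classes passed (percent called 0, with 1 at an unadjusted p under 0.05 in limma and 0 in edgeR). The KO library was below its same-sex WT partner by 2.88% in males and 9.80% in females. Itpr2 is itself a known marker of committed precursors and newly formed oligodendrocytes in the mouse, and the KO is in all cells, so the comparison does not single out astrocytes.

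NFOL per OPC were 0.355 and 0.344 in the male and female Ip3r2 WT libraries and 0.342 and 0.334 in the KO libraries, again with both mutant values below both WT values. The log2 difference of -0.05 (interval -0.73 to 0.64) was small, and the differences from the partner were 3.64% in males and 2.71% in females. NFOL per OPC were thus lower in the mutant in 4 of 4 same-sex pairs of the 2 models, by amounts of which 3 were under 4%, and no test was run over these pairs. NFOL per M-OPC, per MFOL and per MOL went both ways between the pairs. The separation of 2 against 2 libraries seen within each model has p = 0.333 in an exact permutation test. How often other ratios of lineage classes separate in this way was not counted, so it is not read as a result about NFOL. NFOL per MFOL were 16.7 and 7.22 in WT and 12.2 and 6.65 in KO (log2 difference -0.28, interval -1.49 to 0.94), NFOL per MOL 6.34 and 2.39 in WT and 3.66 and 3.43 in KO (-0.13, interval -1.35 to 1.08), and NFOL per M-OPC 9.06 and 5.66 in WT and 8.07 and 7.21 in KO (0.09, interval -1.11 to 1.29). None of the 4 passed (limma, adjusted p = 0.876 each, percent called 0, with 0 at an unadjusted p under 0.05). The direction turned for MFOL and MOL without the male WT library (0.32 and 0.56), for MFOL also without the female KO (0.16) and for M-OPC without the female WT library (-0.24).

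Per nucleus, Ip3r2 KO and WT were close. NFOL had 3089 and 2864.5 UMIs in the male and female KO and 2899 and 2983 in the WT libraries. The log2 difference was 0.02 for UMIs (interval -0.38 to 0.41, adjusted p = 0.99995), 0.03 for genes (-0.29 to 0.34, adjusted p = 0.996) and -0.00 for the mitochondrial share (-0.09 to 0.08, adjusted p = 0.954; limma over 15 classes, percent called 0 in each, with 0 at an unadjusted p under 0.05). The mitochondrial share had the narrowest interval of these measures in both models.

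**Figure D5:**
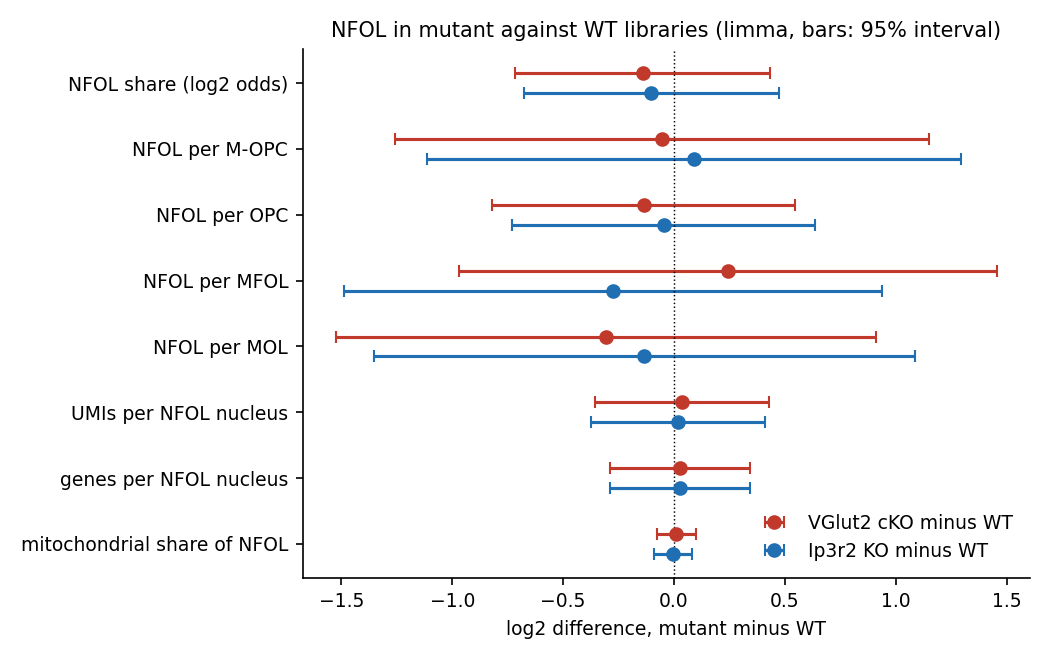
Log2 differences of NFOL between mutant and WT libraries of the VGlut2 and Ip3r2 models, with 95% intervals from limma (2 libraries per group). All 16 intervals include 0, and those of the ratios to M-OPC, MFOL and MOL, which are rarer classes, are the widest.

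The models themselves, the sexes and the control groups were compared last. The VGlut2 difference in NFOL share minus the Ip3r2 difference was -0.04 log2 (interval -0.85 to 0.77, limma, adjusted p = 0.959), the Ip3r2 WT minus the VGlut2 WT libraries gave 0.10 (-0.47 to 0.68, adjusted p = 0.860), and female minus male libraries gave -0.01 (-0.50 to 0.47, adjusted p = 0.960, percent called 0 in each of the 3). At an unadjusted p under 0.05 these fits held 1, 1 and 2 of 17 classes, and NFOL were not among them. Leaving out 1 library turned each of these directions: the first was 0.06 without the male VGlut2 WT and 0.05 without the male VGlut2 cKO library (and 0.08 in edgeR with TMM), the next was -0.000484 without the female VGlut2 WT library, and the last was 0.05 without either VGlut2 WT and 0.01 without either Ip3r2 KO library. Depth differed between the models, and not in NFOL alone. Between the WT groups, limma called 12 of 15 classes for UMIs (percent called 80) and 9 of 15 for genes (percent called 60), while NFOL did not pass (adjusted p = 0.0546 and 0.0690, limma). Classes of a library share its depth, while the fit takes them as independent. These calls are therefore not separate results, and their certainty is overstated. Each Ip3r2 library had more UMIs per NFOL nucleus (2864.5 to 3089) than any VGlut2 library (2076 to 2520), a difference of 0.39 log2 (1.31-fold), and more genes (1441 to 1571 against 1116 to 1335, 0.30 log2, 1.23-fold). Both had p = 0.0286 in an exact permutation test of 4 against 4 libraries, the smallest it can give, and an adjusted p of 0.0571 over 4 measures, above the threshold. The share of NFOL (6.53% ± 0.286 against 6.05% ± 0.544) and their mitochondrial share (3.52% ± 0.0909 against 3.41% ± 0.0807, SD, n = 4) overlapped between the models (exact permutation test, p = 0.200 and 0.143, adjusted p = 0.200 and 0.190). Model and processing day cannot be told apart here, and the comparison of the sexes may also be one of days.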

How the data were processed

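NeuN-negative VC nuclei were profiled in 8 libraries. The authors mapped reads with Cell Ranger to mm10, discarded barcodes with few genes (the lowest in the table is 200), removed doublets with Scrublet per sample, corrected batches with Scanorama, clustered with the Leiden method and named clusters by markers. Deposited UMI and gene counts per nucleus are not normalized; the deposited mitochondrial value is a fraction of UMIs (times UMIs, whole within 0.001 in 44021 nuclei). The authors' embedding coordinates (deposited scores without a unit) were used as given.

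The library was the replicate. Class shares (log2 odds, offset 0.5), ratios of lineage classes and log2 library medians were compared with limma 3.58.1 (R 4.3.3), 1 mean per group over all 8 libraries, Benjamini-Hochberg adjusted, threshold 0.05. MFOL, with 19 nuclei in 1 library, were outside the limma comparisons of UMIs, genes and mitochondrial share. Mitochondrial shares were pooled over nuclei (0.05 percentage points added before log2). Stages were compared by exact sign flips, models by exact permutation (scipy 1.17.1). Libraries of 1 group were from separate mice. edgeR 4.0.16 on the nucleus counts was an alternative. The scripts were tested on simulated data. Only lineage classes and extremes of a ranking are named. The members, lists and tests were chosen with earlier results of these data known.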

Additional observations from a re-analysis of the deposited data

How the results depend on the processing

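Over 37 results and settings other than leaving out a library, 109 of 116 values kept their direction and side of the threshold and stayed within the spread between libraries where no test applied. Direction turned in the difference between the models in NFOL share, which was 0.0755 log2 in edgeR with TMM, and, by means over nuclei, in the NFOL minus OPC genes at equal UMIs (-0.00519) and the Ip3r2 mitochondrial share (0.00695). The relation to the MOL share when both were taken as shares of the lineage passed the threshold (r = -0.82, adjusted p = 0.0434 by exact permutation), and the drop in mitochondrial percentage along the band kept its direction but was smaller (0.521, 0.731 and 0.724 by t-SNE, principal components and in 2000 to 3000 UMIs). The cause of each was not tested. With the same-sex pair in the fit, no call changed (NFOL share, VGlut2 -0.14, Ip3r2 -0.10, adjusted p = 0.976 and 0.993 in limma). GEO's labels give no replicate numbers, so libraries were paired by sex.

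Leaving out 1 library at a time (280 values, 246 with the same direction and call) gave 6 values past the threshold only with all libraries, all of NFOL minus OPC genes at equal UMIs (0.0130 to 0.0179), and 2 past it only without 1 library, in the relations to the OPC share (0.26 to 0.96, female VGlut2 cKO) and to the median UMIs (0.24 to 0.88, male VGlut2 WT; adjusted p = 0.0325 by exact permutation). Direction turned, with no value past the threshold, in the difference between models in NFOL share (-0.141 to 0.0626), Ip3r2 WT minus VGlut2 WT (-0.000484 to 0.203), female minus male (-0.0756 to 0.0513), VGlut2 NFOL per M-OPC (-0.61 to 0.51), per MFOL (-0.0207 to 0.508) and per MOL (-0.689 to 0.0764), VGlut2 UMIs (-0.11 to 0.17), genes (-0.10 to 0.16) and mitochondrial share (-0.0284 to 0.0501), Ip3r2 NFOL per M-OPC (-0.24 to 0.43), per MFOL (-0.87 to 0.32) and per MOL (-0.83 to 0.56), Ip3r2 UMIs (-0.0379 to 0.0710), genes (-0.0344 to 0.0902) and mitochondrial share (-0.0443 to 0.0367), and the relation to the MFOL share (-0.33 to 0.20). With 1 library left in a group, it was assumed to vary like the other groups. Depth and 2 libraries per group limit every comparison of mutant and WT.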
